A study of Mus musculus with 15 samples.

Results

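Microglia treated with interleukin 4 (IL4) were compared directly with microglia treated with transforming growth factor beta (TGFb), across every gene of the deposited expression table. The comparison used 6 of the 15 libraries of the series, 3 from IL4-treated and 3 from TGFb-treated cells. The cells, called ESdM in the labels, are microglia grown in the dish from mouse C57BL/6-ATCC embryonic stem (ES) cells and kept in N2 medium (DMEM/F12), a model of microglia grown outside the brain. One group received IL4 at 100 U/ml and the other TGFb at 50 ng/ml, both for 24 h and with no other agent named. The 6 untreated libraries of the same cells served as a baseline. Another 3 libraries, of cells given bacterial LPS with IFNg, entered only the filter on low values and the model's estimate of the spread between libraries. The labels name 1 stem-cell source and no separate cultures, and the p-values therefore rest on variation among libraries that could be purely technical.

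IL4 signals through a receptor of the IL4 receptor alpha chain with a partner chain, and Janus kinases there activate the transcription factor STAT6. In macrophages this drives the state called alternative activation, with arginase, lectin receptors and repair factors as its usual markers. TGFb binds paired type I and type II serine/threonine kinase receptors that activate SMAD2 and SMAD3, and the SMADs in turn induce their own inhibitors. In the brain TGFb is known as a maintenance signal for microglia and for the genes that set them apart from other macrophages. Both cytokines are commonly called anti-inflammatory, and the direct comparison shows which genes part the states they induce.

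The recovered reads, the whole numbers of reads behind the normalized values, summed to 5523959 to 14361911 per IL4 library, 3715535 to 13403411 per TGFb library and 2682564 to 18676181 per untreated library. Libraries of the same treatment differed by a root mean square of 0.278 to 0.312 on the log2 scale with IL4 and 0.201 to 0.309 with TGFb, and an IL4 library differed from a TGFb library by 0.594 to 0.659. Of 39 markers of microglia, 27 were in the table, among them Csf1r and Cx3cr1. P2ry12 and Sall1, commonly used markers of brain microglia, were not analysed here. Of 14 neuron markers and 13 markers of fibroblasts and muscle, 0 were in the table, and of 14 markers of ES cells only Klf2, which macrophages also express. Astrocyte markers were in the table in 3 of 10 cases and lymphocyte markers in 1 of 12.

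Values below are normalized counts, meaning read counts divided by 1 factor per library, with every value under 1 set to 1. Each difference is IL4 minus TGFb on the log2(value + 1) scale, so positive numbers mean higher with IL4, and it understates the change of low genes. A gene was called at an adjusted p below 0.05, from limma with Benjamini-Hochberg adjustment over all tested genes. Folds are ratios of group means. Gene positions are those of GENCODE M21 on build GRCm38, which is mm10, the build in the submitters' processing notes. In bulk samples such as these, fewer cells of a type and less RNA per cell cannot be told apart.

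IL4-treated and TGFb-treated cells differed in a large share of their genes. Limma called 4427 of 11138 tested genes (39.7%), of which 2309 (20.7% of the tested genes) were higher with IL4 and 2118 (19.0%) higher with TGFb. Among the calls, the median size was 0.40 on the log2 scale for genes higher with IL4 and 0.54 for genes higher with TGFb. At a size of at least 2-fold, 638 genes remained (5.73%), 200 higher with IL4 (1.80%) and 438 higher with TGFb (3.93%). The lean towards TGFb held at larger sizes, with 38 against 110 genes at 4-fold and 12 against 41 at 8-fold. The 3 IL4 and 3 TGFb values did not overlap in 6212 genes (55.8%), and 65 of the called genes did overlap.

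**Figure D1:**
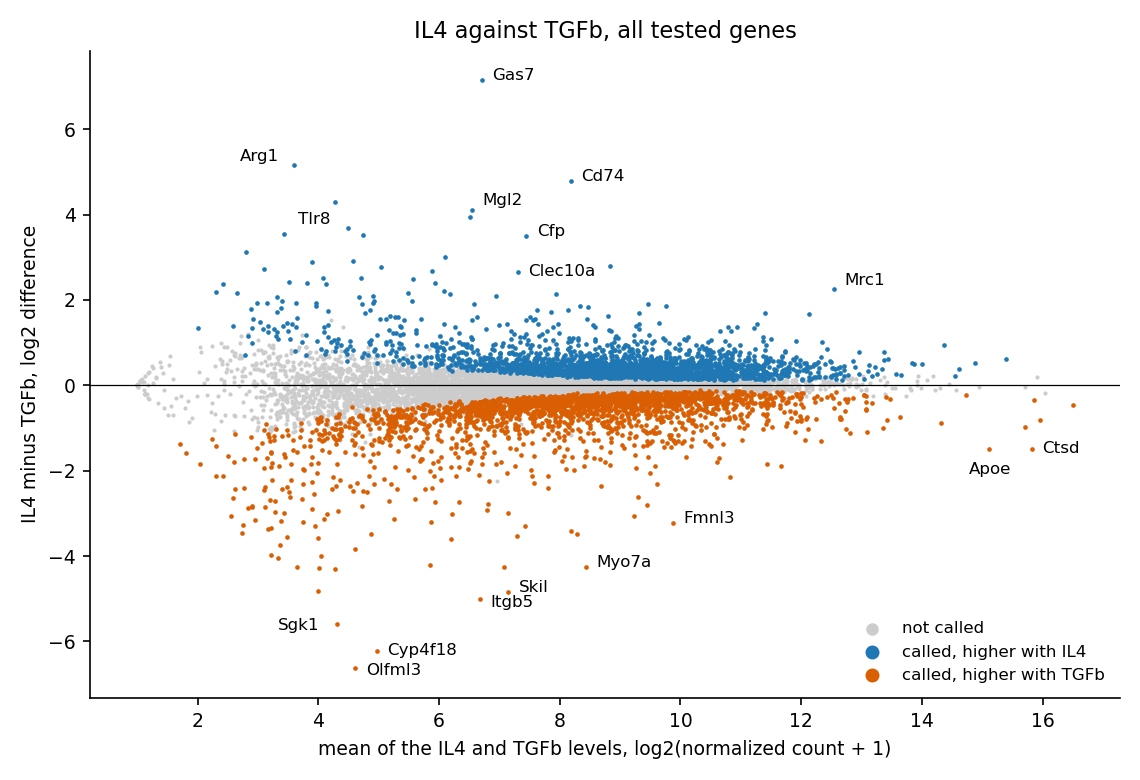
Each point is 1 of the 11138 tested genes, with the mean of its IL4 and TGFb levels on the x axis (log2 of normalized count + 1) and the log2 difference, IL4 minus TGFb, on the y axis. Blue genes were called higher with IL4 and orange genes higher with TGFb, from Gas7 at 7.15 to Olfml3 at -6.63.

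The untreated cells lay closer to the IL4 cells than to the TGFb cells for most of the large differences. Of the 438 genes called at least 2-fold higher with TGFb, the untreated mean was nearer the IL4 mean in 395 (90.2%). The median of these genes was -0.25 from untreated with IL4 and 1.27 with TGFb. Of the 200 genes called at least 2-fold higher with IL4, it was nearer the IL4 mean in 125 (62.5%), with median distances of 0.53 and -0.86. These distances share the 6 untreated libraries and are given as a description. Against untreated cells, limma called 17.2% of the genes with IL4 and 47.5% with TGFb.

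The accepted markers of alternative activation were called more often towards IL4 than towards TGFb. Of 30 listed genes 20 were in the table and 19 were tested, of which 9 were called higher with IL4, 5 higher with TGFb and 5 were not called. The share called was 73.7%, beside 39.7% of all tested genes. The median difference of the 19 was 0.59, beside 0.0072 over all tested genes. Arg1 (chromosome 10, 24915221 to 24927484), which encodes arginase 1, the enzyme that turns arginine into ornithine and urea, gave 75.3, 87.5 and 53.9 with IL4 and 1.00, 1.00 and 1.00 with TGFb. It was detected in every IL4 library, with 288 reads in all, and every TGFb library was at the floor of 1, which allows at most 2 reads in the group. With those 2 reads the depth-adjusted ratio was 127 (95% exact Poisson interval 34.9 to 1056, counting error only). The untreated libraries lay at 1.00 to 2.80 (median 1.04).

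Mrc1 (chromosome 2, 14229392 to 14332057), the macrophage mannose receptor, reached 13451, 13381 and 12302 with IL4 and 2632, 2830.0 and 2739 with TGFb (log2 difference 2.25, SE 0.059, adjusted p = 3.03e-15). The groups lay 4.77-fold apart on either side of the untreated libraries at 4521 to 5268 (median 4814). Mgl2 (chromosome 11, 70130329 to 70137550) and Clec10a (chromosome 11, 70156197 to 70170834) are neighbouring genes for galactose-binding lectins of macrophages, close copies of each other whose reads may be shared. Mgl2 gave 377, 392 and 385 with IL4 and 22.6, 17.1 and 24.7 with TGFb, and Clec10a 402, 428 and 363 with IL4 and 62.7, 57.6 and 65.1 with TGFb. Both were called (4.12 and 2.66), and for both the untreated libraries fell in between, at 50.8 to 75.7 (median 64.7) for Mgl2 and 140.1 to 154 (median 151) for Clec10a.

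Tfrc (chromosome 16, 32608920 to 32632794), the transferrin receptor that brings iron into the cell, gave 8619, 7842 and 7530.2 with IL4 and 2495, 2523 and 2464 with TGFb (log2 difference 1.68, SE 0.079, adjusted p = 1.05e-11). Cish (chromosome 9, 107296026 to 107302784), a STAT-induced inhibitor of cytokine signalling, was at 89.6, 88.9 and 87.3 with IL4 and 5.81, 6.40 and 8.46 with TGFb, a 12.9-fold gap. Socs1, another inhibitor of Janus kinases, had 43 reads with IL4 and 3 with TGFb, a depth-adjusted ratio of 12.7 (interval 4.05 to 63.8). Taking the most reads its floored values allow, the ratio was 9.50 (3.45 to 36.4), and with a pseudocount of 8 its adjusted p was 0.0517. The transcription factor genes Irf4 (log2 difference 0.76, SE 0.17, adjusted p = 0.00149) and Klf4 (log2 difference 0.59, SE 0.17, adjusted p = 0.00951) were higher with IL4 by smaller amounts.

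The 5 panel members called higher with TGFb were Flt1, Egr2, Tgm2, Myc and Itgax. Flt1 (chromosome 5, 147561604 to 147726011), a receptor for vascular endothelial growth factor, gave 6158, 5972 and 5789.7 with IL4 and 12536, 12916 and 13011 with TGFb (log2 difference -1.10, SE 0.055, adjusted p = 2.19e-11). Both stimuli raised it above the untreated libraries at 3360.3 to 3808 (median 3624), IL4 by 0.73, adjusted p = 4.44e-09, and TGFb by 1.83, adjusted p = 2.1e-15. The zinc finger gene Egr2 gave 50.8, 46.6 and 45.2 with IL4 and 176, 171 and 164 with TGFb (log2 difference -1.82, SE 0.29, adjusted p = 6.4e-05). Tgm2, a transglutaminase, differed by -0.73 (adjusted p = 0.00562), Myc by -0.76 (0.0416) and the integrin gene Itgax by -0.19 (0.0404). Myc was not called after leaving out any 1 of the 6 libraries (adjusted p = 0.0559 to 0.115). Itgax was not called without IL4 replicate 1 or 3 or any 1 TGFb replicate (adjusted p = 0.0584 to 0.171), nor in a fit without the trend (0.0792). The count of 5 fell to 3 without IL4 replicate 1 or 3 or without any 1 TGFb replicate. Alox15 (0.81, adjusted p = 0.226), Il1rn (0.21, 0.803), Pdcd1lg2 (-0.23, 0.753), Ocstamp (-0.66, 0.462) and Vegfa (-0.14, 0.158) were not called.

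**Figure D2:**
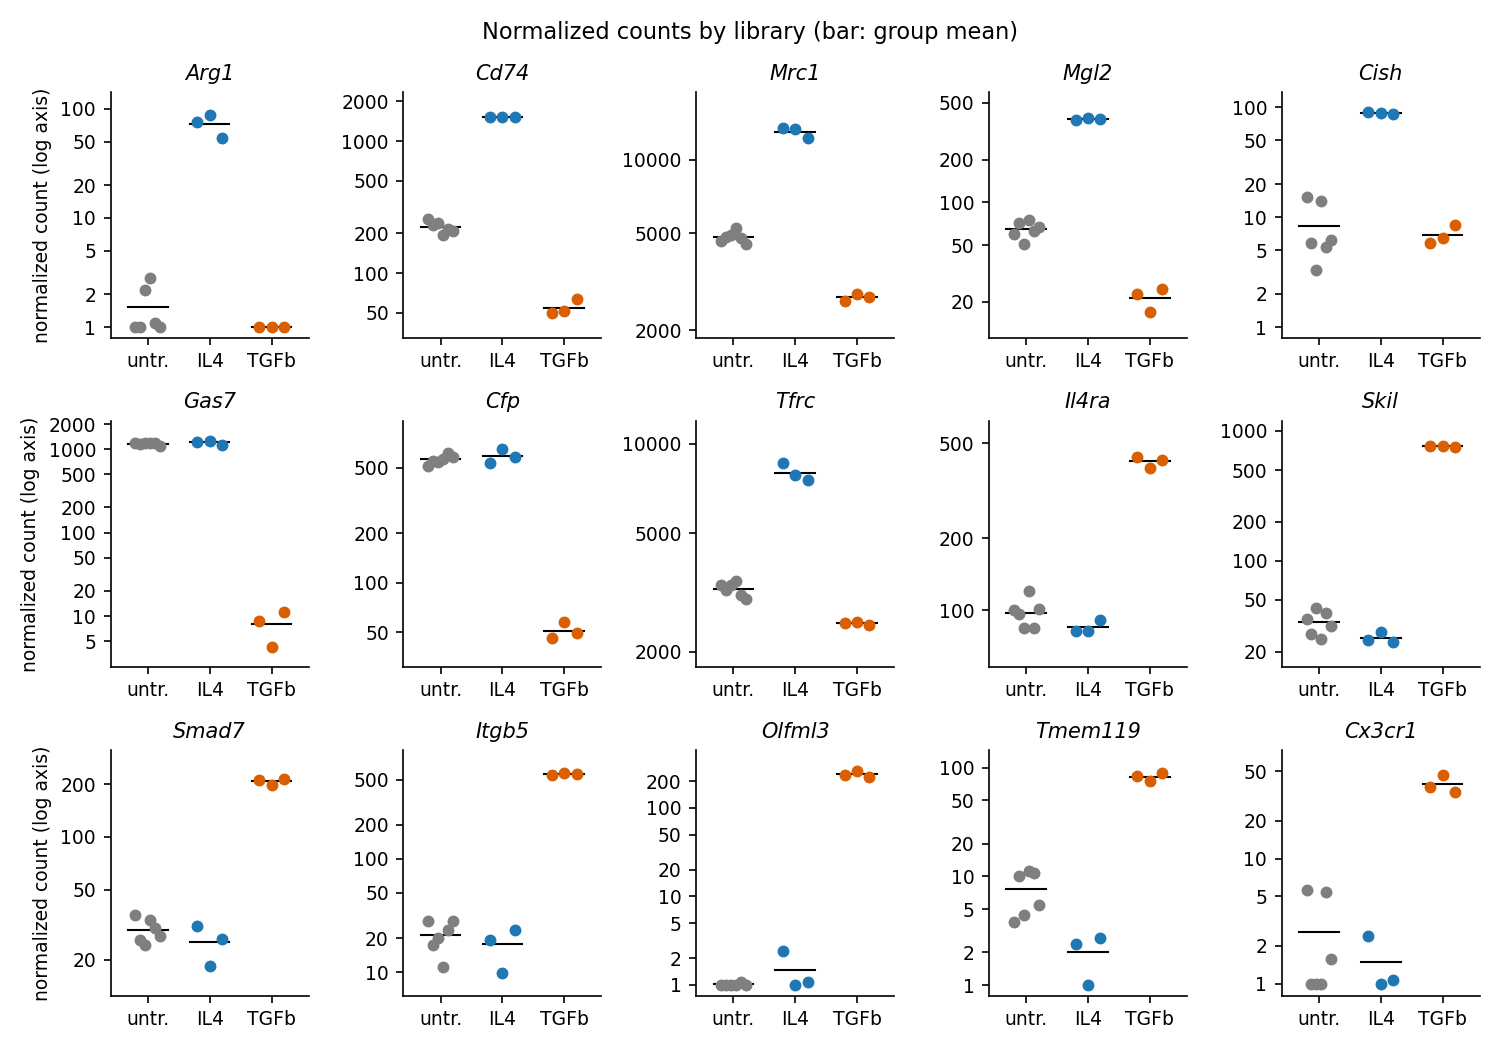
Normalized counts (log axis) of 15 genes in the 6 untreated, 3 IL4 and 3 TGFb libraries, 1 point per library and a bar at the group mean. Cd74, Mrc1 and Mgl2 lie above the untreated libraries with IL4 and below them with TGFb, while Gas7 and Cfp lie below the untreated libraries with TGFb.

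Outside the panel, the gene with the largest difference was Gas7 (chromosome 11, 67455437 to 67688990), a regulator of the actin skeleton, with 1234, 1258 and 1131 with IL4 and 8.71, 4.27 and 11.1 with TGFb (log2 difference 7.15, SE 0.18, adjusted p = 2.25e-15). Its untreated libraries lay at 1095 to 1191 (median 1178), and TGFb lowered it from there (-7.10, adjusted p = 3.84e-16), while IL4 gave no call (0.052, adjusted p = 0.868). The groups lay 151-fold apart. Cfp (chromosome X, 20925454 to 20931555), which encodes the complement stabilizer properdin, showed the same layout, with 532, 647 and 576 with IL4 and 45.9, 57.6 and 49.5 with TGFb and 509 to 617 (median 558) untreated. Its log2 change from untreated was 0.059, adjusted p = 0.722 with IL4, and -3.44, adjusted p = 2.1e-15 with TGFb. Cd74, the invariant chain that guides class II molecules, was at 1516, 1530.3 and 1529.8 with IL4 and 49.9, 51.2 and 63.1 with TGFb (log2 difference 4.78, SE 0.22, adjusted p = 7.89e-12). IL4 raised it above the untreated 193 to 257 (median 223), and TGFb lowered it.

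Several other genes rose from low untreated values with IL4. Lipn (chromosome 19, 34067358 to 34084918), of the acid lipase family, gave 359, 381 and 328 with IL4 and 25.0, 25.6 and 16.9 with TGFb, a 15.8-fold gap, with 30.8 to 54.7 (median 37.1) untreated. Tlr8 (chromosome X, 167242696 to 167264329), an endosomal receptor for RNA, gave 81.3, 86.1 and 71.6 with IL4 and 6.39, 4.27 and 5.21 with TGFb, and the untreated libraries were at 2.80 to 7.54 (median 4.31). Slc39a12 (chromosome 2, 14388316 to 14494977), a zinc transporter of the ZIP family, gave 63.3, 73.4 and 55.5 with IL4 and 7.55, 6.40 and 9.11 with TGFb. Klk1b11, a kallikrein-family serine protease gene on chromosome 7 with many close relatives whose reads may be shared, was at 83.1, 76.2 and 83.0 with IL4 and 1.74, 6.40 and 2.60 with TGFb.

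In 4 more genes IL4 lay above the untreated libraries and TGFb below them. Cytip (chromosome 2, 58129137 to 58195532), a cytohesin-binding regulator of leukocyte adhesion, gave 1234, 1292 and 1086 with IL4 and 170.1, 162 and 185 with TGFb around an untreated range of 509 to 630.4 (median 584). Clec7a (chromosome 6, 129461591 to 129472779), which encodes the beta-glucan receptor dectin-1, gave 151, 154 and 136 with IL4 and 26.1, 23.5 and 17.6 with TGFb, beside 64.9 to 84.1 (median 72.0) untreated. Slc10a6 (chromosome 5, 103605711 to 103629403), a carrier of steroid sulfates, gave 86.1, 84.7 and 81.3 with IL4 and 11.03, 10.7 and 13.02 with TGFb, and the leucine-rich repeat gene Lrrc25 gave 197, 185 and 197 with IL4 and 25.0, 23.5 and 20.8 with TGFb. The log2 differences of these genes were 2.80, 2.68, 2.76 and 3.01 in that order, and being called was a condition of the rule that picked them.

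STAT6 is known to bind TTC followed by 4 bases of any kind and GAA, a motif that reads the same on either strand. RefSeq promoters (build GRCm38.p6) were found for 10 of the 15 genes with the largest differences towards IL4, and 3 of these held the motif within 250 bases before the start. Among all 27025 promoters of that length 5.87% held it, and among those of 8497 tested genes 4.54%. The 3 promoters are shown because they held the motif. The other promoters found at the IL4 end, of genes also far higher with IL4, did not hold it. Each is given 5′ to 3′ on the gene's strand, with capitals marking the motif. In Tlr8 capitals also mark the related TTCNNNGAA, which 7.18% of all promoters held.
Tlr8 (chrX:167264330-167264579, minus strand): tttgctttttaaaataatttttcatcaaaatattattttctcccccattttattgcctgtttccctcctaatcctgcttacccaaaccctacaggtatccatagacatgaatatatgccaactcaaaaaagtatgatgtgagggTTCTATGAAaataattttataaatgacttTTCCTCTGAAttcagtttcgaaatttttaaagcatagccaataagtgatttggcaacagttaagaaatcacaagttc
Slc10a6 (chr5:103629404-103629653, minus strand): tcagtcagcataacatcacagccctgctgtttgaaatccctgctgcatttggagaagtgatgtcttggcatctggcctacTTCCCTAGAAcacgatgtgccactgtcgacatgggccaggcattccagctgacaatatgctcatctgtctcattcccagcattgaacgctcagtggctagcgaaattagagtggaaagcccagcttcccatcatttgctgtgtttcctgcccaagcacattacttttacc
Clec7a (chr6:129472780-129473029, minus strand): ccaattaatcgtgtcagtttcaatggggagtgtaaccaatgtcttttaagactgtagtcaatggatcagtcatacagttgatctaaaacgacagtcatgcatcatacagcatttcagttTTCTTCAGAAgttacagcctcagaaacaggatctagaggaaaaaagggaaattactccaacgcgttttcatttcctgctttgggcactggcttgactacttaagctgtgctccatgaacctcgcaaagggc
The motif began 77 bases before the start in Tlr8, 170 in Slc10a6 and 131 in Clec7a. Of the 9 promoters found for the 15 genes at the TGFb end, 0 held it. The related TTCNNNGAA was in 1 of the 10 promoters at the IL4 end (Tlr8) and 1 of the 9 at the TGFb end (Sgk1, 223 bases before the start). A match of letters is a description and not a bound site.

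Known direct targets of SMADs were nearly all higher with TGFb. Of 28 listed genes 18 were in the table and tested, of which 16 were called higher with TGFb, 1 higher with IL4 and 1 was not called. Their median difference was -1.36. The share called was 94.4%, beside 39.7% of all tested genes. Inhibitors that SMADs induce were among the 16 genes higher with TGFb. Skil (chromosome 3, 31095058 to 31122577), which encodes the SMAD repressor SnoN, gave 761, 770.5 and 747 with TGFb and 24.5, 28.2 and 23.7 with IL4 (log2 difference -4.85, SE 0.17, adjusted p = 2.65e-13). The related repressor gene Ski gave 1544, 1545 and 1580.3 with TGFb and 539, 682 and 665 with IL4, and Smad7, the inhibitory SMAD that blocks the receptor, 211, 198 and 213 with TGFb and 31.1, 18.4 and 26.4 with IL4. These 3 genes were higher with TGFb by 29.8-fold, 2.48-fold and 8.20-fold.

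The growth factor gene Pdgfb gave 1974, 1955 and 1938 with TGFb and 587, 625 and 625 with IL4 (log2 difference -1.67, SE 0.062, adjusted p = 4.35e-13), and the tetraspanin gene Cd9 7945, 8464 and 7649.5 with TGFb and 3305, 3322 and 3159.9 with IL4. Col4a1, a collagen IV chain, was 3.49-fold higher with TGFb (log2 difference -1.78, SE 0.19, adjusted p = 6.36e-07), and its neighbour Col4a2 differed by -0.90 (adjusted p = 0.0158). Col4a2 was not called without IL4 replicate 1 (adjusted p = 0.0689), IL4 replicate 3 (0.0577) or TGFb replicate 2 (0.0732).

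The inhibitors of differentiation Id1, Id2 and Id3 differed by -1.84, -1.12 and -2.37, and each was called. Further calls towards TGFb were the ubiquitin ligase adaptor Spsb1 (-2.72) and the transcription factor genes Tgif1 (-0.93), Bhlhe40 (-0.85) and Klf10 (-0.65). Junb, an AP-1 subunit, gave 1059, 967 and 1270.5 with TGFb and 244, 521 and 553 with IL4 (log2 difference -1.40, SE 0.29, adjusted p = 0.000749). IL4 replicate 1 was the lowest, and the groups did not overlap. Cdkn1a, the p21 cell cycle inhibitor, was the 1 panel member higher with IL4 (log2 difference 0.41, SE 0.11, adjusted p = 0.00451), and Bambi, a decoy receptor, was not called (0.024, adjusted p = 0.926).

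Several genes furthest towards TGFb had few reads in IL4 and untreated cells. Olfml3 (chromosome 3, 103722222 to 103738001), a secreted olfactomedin-domain protein known from microglia, gave 235, 263 and 221 with TGFb and 2.39, 1.00 and 1.08 with IL4 (log2 difference -6.63, SE 0.37, adjusted p = 8.27e-11). Cyp4f18 (chromosome 8, 71988482 to 72009626), a cytochrome P450 that acts on leukotriene B4, gave 256, 284 and 247 with TGFb and 2.39, 1.41 and 4.31 with IL4. Sgk1 (chromosome 10, 21882184 to 21999903), a kinase of the AKT-related family, gave 131, 117 and 156 with TGFb and 1.20, 2.82 and 1.62 with IL4. In these 3 genes the TGFb libraries were all above 100 and the IL4 libraries all below 5, with untreated ranges of 1.00 to 1.08 (median 1.00), 5.39 to 8.41 (median 6.65) and 1.00 to 5.60 (median 2.28).

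Itgb5 (chromosome 16, 33829665 to 33949338), an integrin subunit that pairs with the alpha V chain and binds vitronectin, gave 552, 572 and 562 with TGFb and 19.1, 9.88 and 23.7 with IL4 (log2 difference -5.00, SE 0.34, adjusted p = 1.51e-09). Myo7a (chromosome 7, 98051060 to 98119524), an unconventional myosin, gave 1516, 1511 and 1507 with TGFb and 84.9, 70.6 and 79.2 with IL4 and an untreated range of 66.2 to 89.1 (median 81.8). The serotonin receptor gene Htr2b (chromosome 1, 86099026 to 86111970) gave 79.5, 87.5 and 89.2 with TGFb and 3.59, 2.82 and 3.77 with IL4. None of the 3 was called between IL4 and untreated cells, with changes after IL4 of -0.29, adjusted p = 0.572 for Itgb5, -0.033, adjusted p = 0.884 for Myo7a and -0.27, adjusted p = 0.593 for Htr2b.

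The serine protease gene Prss46 gave 254, 230.5 and 249 with TGFb and 9.56, 11.3 and 17.2 with IL4, and Fcrlb, of the Fc receptor-like family, 243, 245 and 281 with TGFb and 17.9, 18.4 and 24.2 with IL4. Snai1, a repressor of epithelial genes and a known TGFb target, gave 54.0, 68.3 and 58.6 with TGFb and 6.57, 1.00 and 2.69 with IL4. Cd93, a receptor of phagocytes and endothelium, gave 43.5, 61.9 and 54.0 with TGFb and 1.20, 2.82 and 1.62 with IL4. Their log2 differences were -4.20, -3.61, -3.995 and -4.26 in that order. A call and no overlap between the groups were conditions of the rule that picked these genes.

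Of the genes that no other naming rule picked, for the text above or below, the 5 with the smallest adjusted p were all higher with TGFb. Predicted, RIKEN, ribosomal and small RNA genes were left out. Fmnl3 (chromosome 15, 99317225 to 99370482), a formin that builds actin filaments, gave 2842, 2964 and 2792 with TGFb and 329, 272 and 318 with IL4 (log2 difference -3.22, SE 0.077, adjusted p = 1.51e-15), and it fell below untreated with IL4 (-0.93, adjusted p = 1.27e-08). Inf2, also a formin, differed by -1.30. Adssl1, of purine synthesis, differed by -1.88, the carboxypeptidase gene Cpd by -1.71 and the ubiquitin ligase gene Rnf149 by -1.37.

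SMAD complexes are known to bind the letters CAGACA, searched on both strands, and the palindrome GTCTAGAC. Of the 9 promoters found for the 15 genes furthest towards TGFb, 3 held CAGACA, and of the 10 at the IL4 end 1 did (Lipn). It is a short and common word, held by 17.1% of all 27025 promoters and 12.8% of those of tested genes. The palindrome was in 0 of both sets, beside 0.174% of all promoters. The 3 promoters are printed for comparison with those of the IL4 end, with CAGACA or its reverse complement TGTCTG in capitals.
Htr2b (chr1:86111981-86112230, minus strand): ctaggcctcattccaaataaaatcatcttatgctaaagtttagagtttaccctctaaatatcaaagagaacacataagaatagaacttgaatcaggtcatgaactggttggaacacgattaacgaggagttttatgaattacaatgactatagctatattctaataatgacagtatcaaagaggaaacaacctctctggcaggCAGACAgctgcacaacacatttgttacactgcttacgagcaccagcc
Prss46 (chr9:110844256-110844505, plus strand): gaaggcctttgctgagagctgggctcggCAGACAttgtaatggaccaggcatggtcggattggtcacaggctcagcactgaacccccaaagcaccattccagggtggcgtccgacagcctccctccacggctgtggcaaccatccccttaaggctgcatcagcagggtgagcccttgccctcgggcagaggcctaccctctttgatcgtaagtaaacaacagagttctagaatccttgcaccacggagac
Fcrlb (chr1:170912942-170913191, minus strand): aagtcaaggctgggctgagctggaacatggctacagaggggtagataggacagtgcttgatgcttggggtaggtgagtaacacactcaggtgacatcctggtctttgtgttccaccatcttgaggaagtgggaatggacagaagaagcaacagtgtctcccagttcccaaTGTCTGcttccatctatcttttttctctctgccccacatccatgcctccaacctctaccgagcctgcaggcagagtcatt
The word began 47 bases before the start in Htr2b, 222 in Prss46 and 80 in Fcrlb.

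Of the receptor chains for the 2 cytokines, Il4ra, Il13ra1, Tgfbr1 and Tgfbr2 were called higher with TGFb and Il2rg higher with IL4. Il4ra (chromosome 7, 125552120 to 125579474), the IL4-binding alpha chain, gave 439, 395 and 428 with TGFb and 81.9, 81.9 and 91.0 with IL4 (log2 difference -2.29, SE 0.19, adjusted p = 1.9e-08). The TGFb cells were above the untreated range of 83.9 to 120.5 (median 98.2), and the IL4 cells were not called against it (-0.19, adjusted p = 0.494). Il13ra1, the partner chain of the type II IL4 receptor, gave 762, 805 and 778 with TGFb and 357, 364 and 326 with IL4, and Jak3 gave 96.4, 85.4 and 107 with TGFb and 28.7, 48.0 and 45.2 with IL4. The common gamma chain gene Il2rg went the other way (log2 difference 0.28, SE 0.066, adjusted p = 0.00274), as did the adaptor gene Grb2 (0.51). Over the 21 tested genes of IL4 receptor and STAT6 signalling, 4 were called higher with IL4 and 9 with TGFb, with a median of -0.043. The share called was 61.9%, beside 39.7% of all tested genes. Without IL4 replicate 1 or TGFb replicate 2, 5 of the 9 were called.

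Tgfbr1 and Tgfbr2, the type I and type II TGFb receptors, were 1.67-fold and 1.69-fold higher with TGFb. Tgfbr1 gave 730.3, 711 and 719.9 with TGFb and 452, 421 and 419 with IL4 (log2 difference -0.74, SE 0.075, adjusted p = 2.38e-07), and Tgfbr2 798, 770.5 and 779 with TGFb and 492, 481 and 413 with IL4 (log2 difference -0.76, SE 0.081, adjusted p = 4.94e-07). Smad6, an inhibitory SMAD, gave 33.1, 29.9 and 45.6 with TGFb and 1.00, 1.41 and 1.62 with IL4, and 1.00 to 1.89 (median 1.04) untreated. Furin, the protease that matures TGFb itself, gave 3785, 4036 and 3619 with TGFb and 818, 928 and 839 with IL4, and Itgav, the alpha V integrin that releases latent TGFb, 2299, 2439 and 2408 with TGFb and 1136, 983 and 938 with IL4. Of the signal-transducing SMAD genes, Smad2 was higher with IL4 (0.30, adjusted p = 0.00417), and Smad3 (0.052, 0.772) and Smad4 (-0.014, 0.921) were not called. In all, 14 of the 29 tested receptor, SMAD and feedback genes were higher with TGFb and 4 with IL4, with a median of -0.27. The share called was 62.1%, beside 39.7% of all tested genes. The count of 4 was 2 without IL4 replicate 1, IL4 replicate 2 or TGFb replicate 1.

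Genes that mark resting microglia in the brain were higher with TGFb in most cases. Of 35 listed genes 23 were tested, of which 17 were called higher with TGFb, 1 higher with IL4 and 5 were not called. The median difference was -0.73, and 78.3% were called, beside 39.7% of all tested genes. Tmem119 (chromosome 5, 113793729 to 113800516), a membrane protein used to stain microglia, gave 83.0, 74.7 and 89.2 with TGFb and 2.39, 1.00 and 2.69 with IL4 (log2 difference -4.83, SE 0.43, adjusted p = 4.69e-08). IL4 took it below the untreated range of 3.77 to 11.2 (median 7.77) (-1.45, adjusted p = 0.00998), and TGFb took it above. Gpr56, an adhesion receptor also named Adgrg1, gave 68.5, 74.7 and 63.1 with TGFb and 2.99, 1.41 and 3.77 with IL4. Cx3cr1 (chromosome 9, 119901616 to 120069879), the fractalkine receptor, gave 37.7, 47.0 and 33.8 with TGFb and 2.39, 1.00 and 1.08 with IL4, and the UDP receptor gene P2ry6 125, 102 and 107 with TGFb and 14.9, 9.88 and 11.3 with IL4. The log2 differences of these 4 genes lay between -4.83 and -3.12.

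The Golgi gene Golm1 gave 1018, 1027 and 1015 with TGFb and 482, 460.2 and 476 with IL4 (log2 difference -1.11, SE 0.065, adjusted p = 1.88e-10), and the selectin ligand gene Selplg 682, 679 and 681 with TGFb and 338, 392 and 377 with IL4. Csf1r, the receptor on which microglia depend, was not called (-0.039, adjusted p = 0.87).

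The genes of disease-associated microglia, a state seen around plaques and dying neurons, split by treatment. Of 26 tested members 8 were higher with IL4 and 12 higher with TGFb, with a median of -0.019. The share called was 76.9%, beside 39.7% of all tested genes. On the IL4 side stood Clec7a, Fabp5, a fatty acid carrier with 4314, 4280.5 and 4078 with IL4 and 1894, 2072 and 1992 with TGFb, Lgals3, which encodes galectin 3, with 27618, 30114 and 30304 with IL4 and 15240.0, 15499 and 14877 with TGFb, and the growth factor gene Igf1 (0.76). On the TGFb side, Apoe, the lipid carrier, gave 59767, 56922 and 61275 with TGFb and 18234, 23071 and 22672 with IL4 (log2 difference -1.48, SE 0.097, adjusted p = 7.97e-10), and Ctsd, the protease cathepsin D, 97307, 100053 and 94795 with TGFb and 34768, 33685 and 35016 with IL4 (log2 difference -1.50, SE 0.066, adjusted p = 5.16e-12). The lipid-sensing receptor gene Trem2 gave 2890.5, 2979 and 2598 with TGFb and 1639, 1809.9 and 1692 with IL4, and Spp1, which encodes osteopontin, 83421, 87591 and 80396 with TGFb and 48624, 49864 and 45366 with IL4. Against untreated cells, TGFb changed Trem2 by 0.73, adjusted p = 5.46e-08, and IL4 by 0.017, adjusted p = 0.903.

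**Figure D3:**
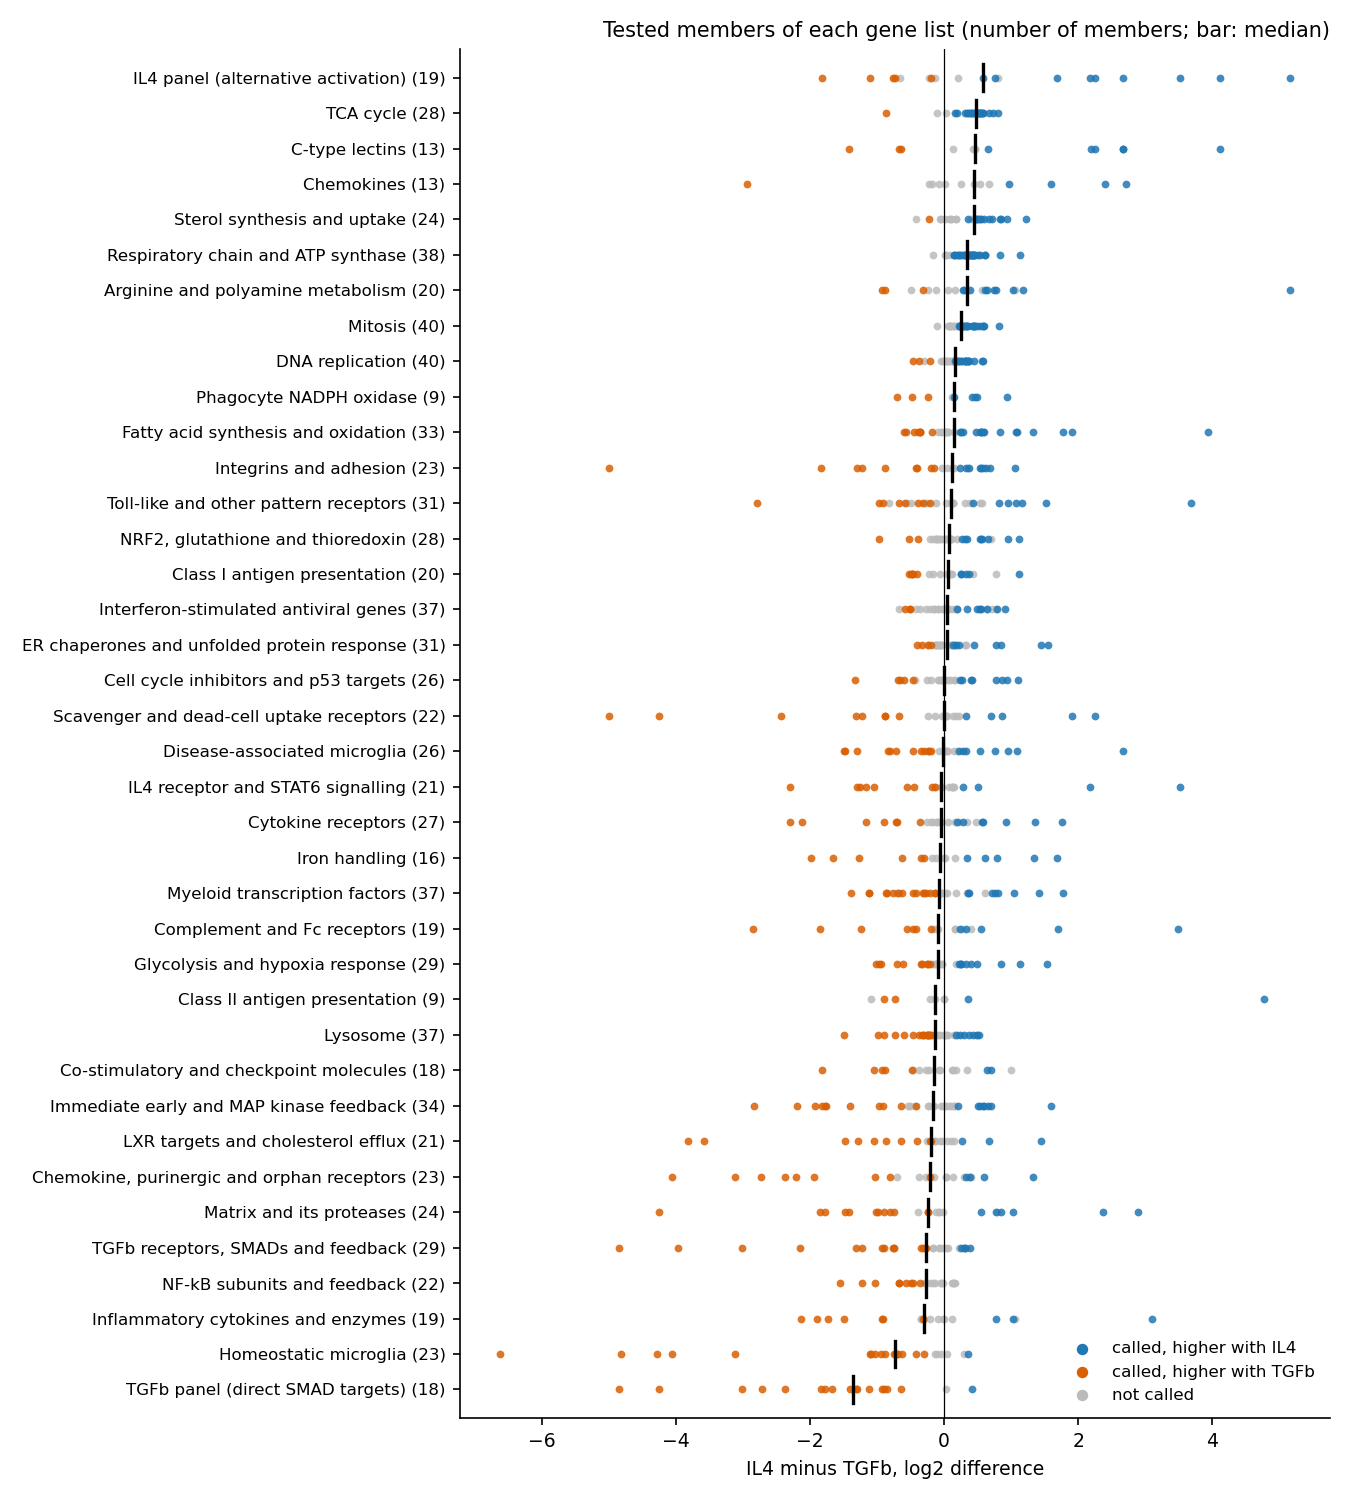
Log2 differences (IL4 minus TGFb, x axis) of the tested members of 38 gene lists, 1 point per gene, blue or orange where called and grey where not, with a bar at the list's median. The lists run from the TGFb panel at the bottom (median -1.36) to the IL4 panel at the top (0.59), and most hold calls in both directions.

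Genes of antigen presentation were called at shares near that of all tested genes (39.7%), 44.4% for class II and 50.0% for class I. Of 9 tested class II genes 2 were higher with IL4, Cd74 and Ifi30, and 2 with TGFb, H2-DMb1 (-0.74) and the protease gene Ctss (-0.89). Ifi30, a lysosomal thiol reductase (0.36), was not called without IL4 replicate 1 (adjusted p = 0.0515), IL4 replicate 3 (0.0525), TGFb replicate 1 (0.0589) or TGFb replicate 3 (0.0614). Ciita, the master regulator of class II genes, was at the floor of 1 in all 6 libraries, as was the class II alpha chain gene H2-Aa. Of 20 class I genes 5 were called in each direction, and the 5 towards IL4 were 3 without IL4 replicate 3. Psmb10, an immunoproteasome subunit, gave 415, 428 and 409 with IL4 and 189.8, 207 and 182 with TGFb (log2 difference 1.11, SE 0.11, adjusted p = 1.72e-07), and Nlrc5, the activator of class I genes, was higher with TGFb (log2 difference -0.47, SE 0.092, adjusted p = 0.000416).

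Among chemokines, 4 of 13 tested genes were higher with IL4 and 1 with TGFb, and the median was 0.44. The share called, 38.5%, was near the 39.7% of all tested genes. Ccl2, which attracts monocytes, gave 133, 158 and 119.6 with IL4 and 26.7, 34.1 and 16.9 with TGFb (log2 difference 2.40, SE 0.29, adjusted p = 1.96e-06), and its neighbour Ccl7 20.9, 19.8 and 19.9 with IL4 and 1.74, 4.27 and 1.30 with TGFb. Ccl9 gave 70.5, 73.4 and 59.3 with IL4 and 21.5, 27.7 and 16.9 with TGFb, with both stimuli below the untreated 118 to 137 (median 131). Pf4, which encodes platelet factor 4, differed by 0.96. Cxcl16, a membrane-bound chemokine that also takes up oxidized lipid, was the gene higher with TGFb, at 48.8, 51.2 and 61.2 with TGFb and 8.37, 7.06 and 3.77 with IL4.

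Inflammatory cytokines and enzymes did not share 1 direction. Of 19 tested, 3 were higher with IL4 and 7 with TGFb, with a median of -0.30. The share called was 52.6%, beside 39.7% of all tested genes, 20.7% towards IL4 and 19.0% towards TGFb. Il1b, the precursor of interleukin 1 beta, gave 21.5, 14.1 and 23.2 with IL4 and 1.16, 1.00 and 1.95 with TGFb (log2 difference 3.11, SE 0.43, adjusted p = 1.07e-05), around an untreated range of 1.89 to 9.93 (median 6.51). Tnf, by contrast, gave 272, 256 and 249.9 with TGFb and 93.2, 93.2 and 88.3 with IL4 (log2 difference -1.49, SE 0.14, adjusted p = 6.94e-08), and the untreated libraries at 159 to 187 (median 179.6) lay between. Also higher with TGFb were Irg1, the enzyme that makes itaconate, at 92.3, 89.6 and 99.6 with TGFb and 25.7, 31.1 and 26.4 with IL4, the prostaglandin synthase gene Ptges at 34.3, 42.7 and 39.1 with TGFb and 10.2, 7.06 and 7.003 with IL4, and Alox5ap, a cofactor of leukotriene synthesis, at 3776, 3893 and 3590.1 with TGFb and 1957, 2017 and 2024 with IL4. Tnf changed from untreated by -0.93, adjusted p = 1.91e-05 with IL4, and by 0.56, adjusted p = 0.000744 with TGFb.

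Of 27 cytokine receptors 7 were called in each direction, where 20.7% of all tested genes were called towards IL4 and 19.0% towards TGFb. Il7r, the interleukin 7 receptor, gave 525, 544 and 484 with IL4 and 145, 154 and 156 with TGFb (log2 difference 1.76, SE 0.12, adjusted p = 1.23e-09), and Il6st, the shared gp130 chain, 1878, 1914 and 1654 with IL4 and 905, 1016 and 944 with TGFb. Il1rl1, which encodes the interleukin 33 receptor ST2, gave 119, 136 and 107 with IL4 and 51.1, 32.0 and 59.2 with TGFb. On the other side, Il17ra gave 472, 457 and 463 with TGFb and 103, 117 and 98.6 with IL4 (log2 difference -2.12, SE 0.12, adjusted p = 9.33e-11), and the TNF receptor gene Tnfrsf1b 1995, 1961 and 1957 with TGFb and 1042, 1122 and 1021 with IL4. Il17ra fell below untreated with IL4 (-0.62, adjusted p = 0.000316) and rose with TGFb (1.502, adjusted p = 1.08e-09).

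Of 23 tested chemokine, purinergic and orphan receptors, 9 were higher with TGFb and 4 with IL4 (2 without IL4 replicate 2 or TGFb replicate 1), with a median of -0.21. The share called was 56.5%, beside 39.7% of all tested genes. Cxcr4, the receptor for CXCL12, gave 1205, 1244 and 1179 with TGFb and 308, 305 and 328 with IL4 (log2 difference -1.94, SE 0.12, adjusted p = 6.43e-10), and Ptger4, a receptor for prostaglandin E2, 165, 154 and 150.3 with TGFb and 20.9, 28.2 and 19.4 with IL4. Gpr84, a receptor for medium-chain fatty acids, gave 149, 130.2 and 141 with TGFb and 33.5, 25.4 and 29.6 with IL4. P2rx4, the ATP-gated channel, was higher with IL4, at 991, 994 and 1005 with IL4 and 755, 775 and 763 with TGFb (log2 difference 0.38, SE 0.067, adjusted p = 0.000156).

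Of 31 tested Toll-like and other pattern receptors and their partners, 7 were higher with IL4 and 8 with TGFb (5 of the 8 without IL4 replicate 3), with a median of 0.11. In all 48.4% were called, beside 39.7% of all tested genes. Tlr2 (chromosome 3, 83836272 to 83841767), which sees bacterial lipopeptides, gave 1814, 1889 and 1798 with TGFb and 266, 302 and 225 with IL4 (log2 difference -2.80, SE 0.098, adjusted p = 2.09e-13). Its partner gene Tlr1 gave 324, 281 and 271 with IL4 and 96.4, 113 and 93.7 with TGFb (log2 difference 1.52, SE 0.11, adjusted p = 3.46e-09), the opposite direction. From untreated, TGFb changed Tlr2 by 1.81, adjusted p = 7.6e-12, and Tlr1 by -1.06, adjusted p = 4.91e-08. Tlr4, the endotoxin receptor, was higher with IL4 (log2 difference 1.16, SE 0.18, adjusted p = 5.59e-05), and so were the caspase genes Casp1 (0.96) and Casp4 (1.08), while the inflammasome sensor gene Nlrp3 was higher with TGFb (log2 difference -0.97, SE 0.14, adjusted p = 2.04e-05).

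Of 13 tested C-type lectins 6 were higher with IL4 and 3 with TGFb, with a median of 0.47. The share called was 69.2%, beside 39.7% of all tested genes. Beside Mrc1, Mgl2, Clec10a and Clec7a, Clec4a3 gave 148, 141 and 140.1 with IL4 and 21.5, 36.3 and 35.8 with TGFb (log2 difference 2.20, SE 0.20, adjusted p = 6.17e-08). Clec5a, which signals through DAP12, was higher with TGFb at 487, 472 and 467 with TGFb and 323, 308 and 279.6 with IL4, and the collectin gene Colec12 at 3508, 3573 and 3449 with TGFb and 2206, 2249 and 2131 with IL4. IL4 lowered Clec5a from untreated (-0.58, adjusted p = 1.22e-05), and with TGFb it was not called (0.062, adjusted p = 0.5).

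Complement and uptake genes were divided as well. Of 19 complement and Fc receptor genes 5 were higher with IL4 and 7 with TGFb, with a median of -0.086. The share called was 63.2%, beside 39.7% of all tested genes. C3, the central complement component, gave 5003, 4451 and 5129.9 with IL4 and 1509, 1443 and 1545 with TGFb (log2 difference 1.69, SE 0.12, adjusted p = 3.37e-09), with 1187 to 1383 (median 1285) untreated. IL4 raised it (1.92, adjusted p = 6.97e-10), and TGFb gave no call (0.23, adjusted p = 0.0876). C1qc, a chain of the complement starter C1q, gave 29.6, 21.3 and 16.3 with TGFb and 1.20, 2.82 and 2.69 with IL4, and Fcer1g, the signalling chain of Fc receptors, 3151, 3376 and 3066 with TGFb and 2239, 2359 and 2329 with IL4. Of 22 scavenger and dead-cell uptake receptors 5 were higher with IL4 (3 without TGFb replicate 2) and 8 with TGFb, with a median of -0.0072. Here 59.1% were called, beside 39.7% of all tested genes. The fatty acid and lipid receptor gene Cd36 gave 1392, 1382 and 1304 with IL4 and 347, 363 and 376 with TGFb (log2 difference 1.91, SE 0.15, adjusted p = 7.41e-09), and Stab1, a scavenger receptor, 114, 74.7 and 85.3 with TGFb and 17.3, 14.1 and 16.2 with IL4. Lrp1, a large uptake receptor for many ligands, gave 28506, 28214 and 26490.0 with TGFb and 15597, 15395 and 14166 with IL4 (log2 difference -0.88, SE 0.069, adjusted p = 8.71e-09).

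Co-stimulatory and checkpoint genes had 2 of 18 members higher with IL4 and 5 with TGFb, with a median of -0.15 and 38.9% called, near the share of all tested genes. Cd47, the signal that protects cells from uptake, was higher with IL4 at 365, 389.6 and 363 with IL4 and 219, 228 and 236 with TGFb (log2 difference 0.71, SE 0.088, adjusted p = 3.21e-06), as was Pvr (0.64). Havcr2, which encodes the checkpoint receptor TIM-3, was higher with TGFb at 457, 519 and 474 with TGFb and 263, 294 and 232 with IL4 (log2 difference -0.88, SE 0.12, adjusted p = 7.48e-06), and Cd83 at 109, 107 and 118 with TGFb and 32.3, 33.9 and 26.9 with IL4.

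Of 22 tested genes of the NF-kB pathway 9 were called higher with TGFb and 0 with IL4, and the median was -0.28. The share called, 40.9%, was near the 39.7% of all tested genes, of which 20.7% were called towards IL4 and 19.0% towards TGFb. The called genes include inhibitors that NF-kB itself induces, while Nfkb2, Rel, Traf1, Bcl3 and Icam1 were not called. Nfkbia, the IkB alpha gene, gave 474, 425 and 461 with TGFb and 214, 223 and 224 with IL4 (log2 difference -1.04, SE 0.11, adjusted p = 2.63e-07), Nfkbie 221, 211 and 184 with TGFb and 66.3, 73.4 and 67.3 with IL4, and the deubiquitinase gene Tnfaip3 494, 469.5 and 464 with TGFb and 304, 322 and 268 with IL4. The subunit genes Relb and Nfkb1 differed by -0.67 and -0.36. Against untreated cells Nfkbia changed by 0.57, adjusted p = 4.35e-05 with TGFb, and by -0.46, adjusted p = 0.00138 with IL4.

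Antiviral genes induced by interferon showed small differences, with 8 of 37 higher with IL4, 3 with TGFb (1 without TGFb replicate 3) and a median of 0.040. The share called, 29.7%, was below the 39.7% of all tested genes. Because the filter counted all 15 libraries, a gene could be tested through its LPS and IFNg values alone. Such a gene can lie at the floor with both IL4 and TGFb and then cannot be called. The list's median change from untreated with TGFb was 0. Ifitm3, which blocks virus entry, gave 181, 162 and 199.8 with IL4 and 89.4, 98.2 and 98.9 with TGFb (log2 difference 0.91, SE 0.11, adjusted p = 1.58e-06), both below 265 to 324 (median 299) untreated. Trim25 differed by 0.56 and Oasl1 by 0.65.

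Immediate early genes and their feedback were higher with TGFb in 11 of 34 tested cases and with IL4 in 8 (5 without IL4 replicate 2), with a median of -0.16. The share called was 55.9%, beside 39.7% of all tested genes, 20.7% towards IL4 and 19.0% towards TGFb. Fos gave 488, 504 and 462 with TGFb and 139, 167 and 119 with IL4 (log2 difference -1.78, SE 0.30, adjusted p = 0.000108), Fosl2 621, 572 and 653 with TGFb and 326, 313 and 297 with IL4, and Dusp6, a phosphatase that ends ERK signalling, 73.1, 72.6 and 63.8 with TGFb and 10.8, 22.6 and 12.4 with IL4. Atf3, a stress-induced factor, was higher with IL4 at 2144, 2198 and 2129 with IL4 and 1332, 1268 and 1386 with TGFb (log2 difference 0.70, SE 0.16, adjusted p = 0.00205).

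Of 37 tested myeloid transcription factors 16 were higher with TGFb and 8 with IL4, with a median of -0.080. The share called was 64.9%, beside 39.7% of all tested genes. Cebpa gave 993, 919.9 and 997 with TGFb and 334, 363 and 412 with IL4 (log2 difference -1.39, SE 0.16, adjusted p = 1.16e-06), and Cebpb 692, 576 and 872 with TGFb and 212, 373 and 431 with IL4, with IL4 replicate 1 lowest in both genes. Mef2a and Mef2c, linked to microglial identity, differed by -0.69 and -0.63. Mef2c was not called between TGFb and untreated cells (-0.049, adjusted p = 0.655) and fell with IL4 (-0.68, adjusted p = 1.21e-05). Tfec, a macrophage factor of the MiT family, was higher with IL4 at 214, 203 and 206 with IL4 and 83.0, 68.3 and 81.4 with TGFb (log2 difference 1.42, SE 0.14, adjusted p = 1.41e-07).

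Genes of mitochondrial metabolism were mostly higher with IL4. Of 28 genes of the tricarboxylic acid (TCA) cycle, which oxidizes acetyl units, 25 were higher with IL4 and 1 with TGFb, with a median of 0.47. The share called was 92.9%, beside 39.7% of all tested genes, 20.7% towards IL4 and 19.0% towards TGFb. Idh3a, a subunit of isocitrate dehydrogenase, gave 2117, 2164 and 2024 with IL4 and 1224, 1167 and 1214 with TGFb (log2 difference 0.81, SE 0.051, adjusted p = 4.72e-10), Sdhb of succinate dehydrogenase 1358, 1536 and 1420.0 with IL4 and 846, 879 and 871 with TGFb, and the fumarase gene Fh1 2153, 2273 and 2169 with IL4 and 1437, 1596 and 1453 with TGFb. The gaps in these 3 genes were 1.75-fold, 1.66-fold and 1.47-fold. Me1, the cytosolic malic enzyme, was the gene higher with TGFb, at 1358, 1347 and 1377 with TGFb and 783, 759.5 and 704 with IL4 (log2 difference -0.86, SE 0.061, adjusted p = 1.96e-09).

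Of 38 genes of the respiratory chain and ATP synthase, 30 were higher with IL4 and 0 with TGFb, with a median of 0.34. The share called was 78.95%, beside 39.7% of all tested genes. Cycs (chromosome 6, 50562563 to 50566538), which encodes the electron carrier cytochrome c, gave 1635, 1676 and 1675 with IL4 and 765, 775 and 728 with TGFb (log2 difference 1.14, SE 0.053, adjusted p = 1.02e-11). Cyc1 of complex III gave 4390.1, 4523 and 4822 with IL4 and 2972, 3052 and 3007 with TGFb, and the ATP synthase gene Atp5g1 793, 761 and 793 with IL4 and 478, 406 and 429.6 with TGFb. By library, the median level of this list was 0.178 to 0.280 above the untreated mean with IL4 and between -0.135 and -0.0996 with TGFb. For the TCA cycle the same medians were 0.135 to 0.180 with IL4 and -0.304 to -0.284 with TGFb, on the other side of the untreated mean.

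**Figure D4:**
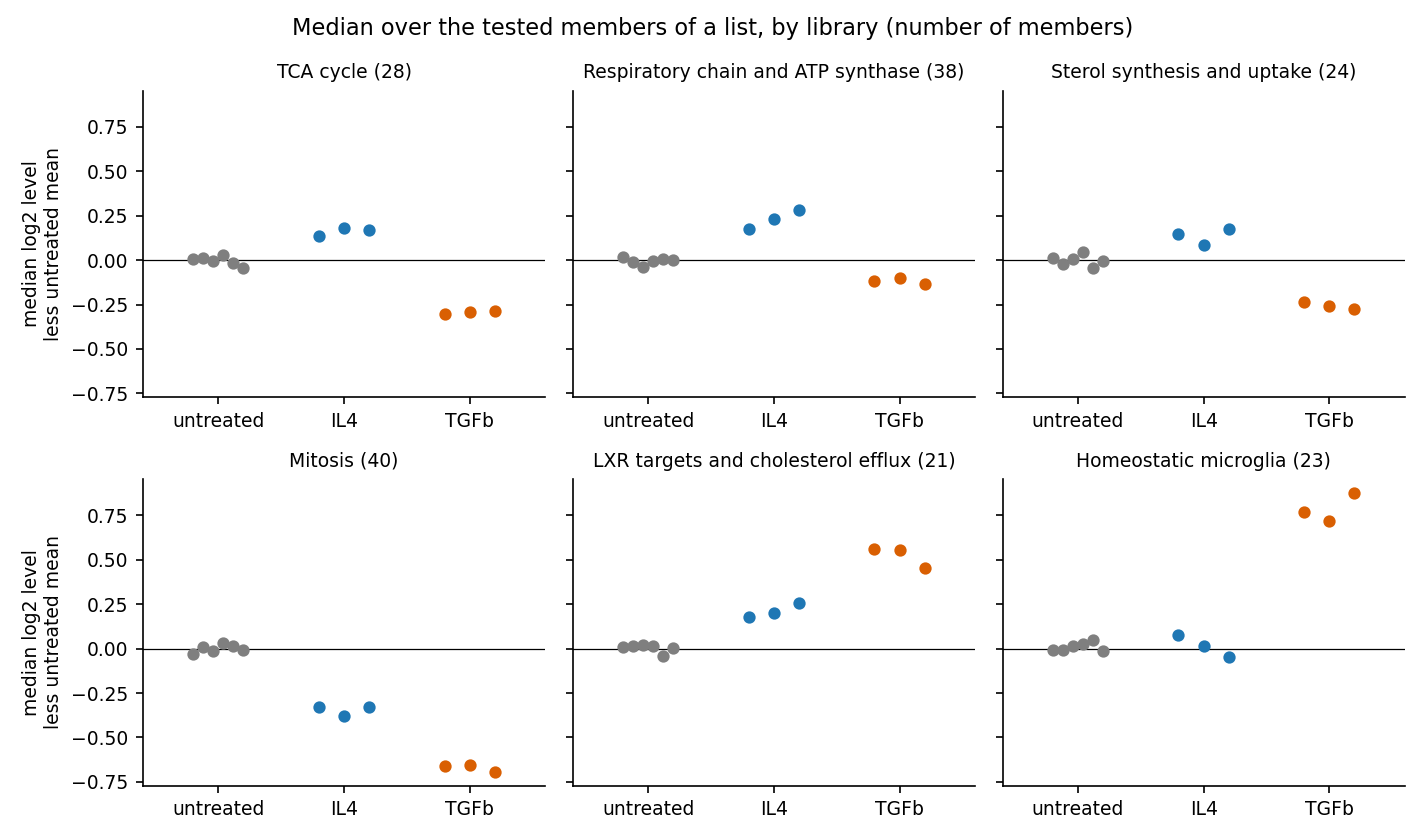
For 6 gene lists, the median over the tested members of the log2 level less the gene's untreated mean (y axis), 1 point per library in the untreated, IL4 and TGFb groups. Mitosis genes lie below untreated with both stimuli, at -0.381 to -0.328 with IL4 and -0.693 to -0.653 with TGFb, and homeostatic microglia genes lie above it with TGFb, at 0.720 to 0.876.

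Sterol genes followed the same direction. Of 24 genes of cholesterol synthesis and uptake 13 were higher with IL4 and 1 with TGFb, with a median of 0.44. The share called was 58.3%, beside 39.7% of all tested genes. Idi1, an isomerase of the isoprenoid steps, gave 401, 376 and 386 with IL4 and 165, 181 and 148 with TGFb (log2 difference 1.23, SE 0.085, adjusted p = 1.66e-09). It changed from untreated by -1.06, adjusted p = 1.38e-09 with TGFb, and by 0.17, adjusted p = 0.142 with IL4.

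The list of LXR (sterol sensor) targets and cholesterol efflux genes leaned the other way, with 10 of 21 higher with TGFb, 3 with IL4 and a median of -0.20. In all 61.9% were called, beside 39.7% of all tested genes. Among them Abcg1 was higher with TGFb, and Abca1 was not called. Srebf1, the LXR target that drives fatty acid synthesis, gave 6677, 6725 and 6614 with TGFb and 2389.9, 2889.9 and 2949 with IL4 (log2 difference -1.29, SE 0.10, adjusted p = 1.13e-08), and the ubiquitin ligase gene Mylip 952, 884 and 1024 with TGFb and 472, 477 and 430.4 with IL4. The apolipoprotein genes Apoc1 and Apoc2, neighbours of Apoe, gave 91.1, 85.4 and 91.8 with TGFb and 6.57, 7.06 and 3.23 with IL4 for Apoc1 and 50.5, 44.8 and 64.4 with TGFb and 2.39, 2.82 and 5.93 with IL4 for Apoc2. Soat1, which stores cholesterol as esters, was higher with IL4 (log2 difference 0.66, SE 0.055, adjusted p = 2.06e-08).

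Of 33 fatty acid genes 16 were higher with IL4 and 8 with TGFb, with a median of 0.15. The share called was 72.7%, beside 39.7% of all tested genes. Elovl6, a fatty acid elongase, gave 182, 172 and 160.0 with IL4 and 64.4, 81.1 and 59.9 with TGFb (log2 difference 1.32, SE 0.13, adjusted p = 1.64e-07), Acly, which makes cytosolic acetyl-CoA, 3002, 2773 and 3059 with IL4 and 1919, 1998 and 1893 with TGFb, and Fabp4 137, 143 and 121 with IL4 and 63.3, 76.8 and 50.8 with TGFb. Higher with TGFb were Cpt1a, the gate of fatty acid oxidation, at 1617, 1671 and 1603 with TGFb and 1095, 1063 and 1136 with IL4 (log2 difference -0.57, SE 0.085, adjusted p = 2.74e-05), and Plin2, a lipid droplet coat protein, at 8438, 8296 and 8240.5 with TGFb and 5494, 5260.2 and 5680.4 with IL4.

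Glycolysis and hypoxia genes were called in both directions, with 9 of 29 higher with IL4 and 10 with TGFb, and a median of -0.094. The share called was 65.5%, beside 39.7% of all tested genes. The glucose transporter gene Slc2a1 gave 1639.5, 1489.7 and 1494 with TGFb and 749, 754 and 781 with IL4 (log2 difference -1.01, SE 0.063, adjusted p = 3.81e-10), Hif1a 1638, 1763 and 1672 with TGFb and 858, 960.0 and 818 with IL4, and Pfkfb3, an activator of glycolysis, 1842, 1991 and 1944 with TGFb and 992, 1025 and 937 with IL4. Hk3, a hexokinase of myeloid cells, was higher with IL4 at 3810.4, 4135 and 3759.5 with IL4 and 1775, 1848 and 1683 with TGFb (log2 difference 1.14, SE 0.10, adjusted p = 7.03e-08).

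Beside Arg1, 9 other of the 20 tested genes of arginine and polyamine metabolism were higher with IL4 and 3 with TGFb, with a median of 0.34. With Arg1 included 65% were called, beside 39.7% of all tested genes. Slc7a1, a transporter of arginine, gave 3634, 3635 and 3994 with IL4 and 1884, 1720.2 and 1909.6 with TGFb (log2 difference 1.03, SE 0.054, adjusted p = 4.07e-11), Odc1, which makes the first polyamine from ornithine, 1193, 1173 and 1248 with IL4 and 800.0, 794 and 773 with TGFb, and Sat1, which starts polyamine breakdown, 3748, 3573 and 3432 with IL4 and 2242, 2335 and 2338 with TGFb. Slc7a1 and Odc1 fell below untreated with TGFb (-1.14, adjusted p = 1.26e-12 for Slc7a1), while Sat1 rose with both stimuli from 1604 to 1891 (median 1743). Smox, spermine oxidase, was higher with TGFb (log2 difference -0.92, SE 0.11, adjusted p = 2.42e-06).

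Of 16 tested iron genes, 5 were higher with IL4 and 6 with TGFb, with a median of -0.057. The share called was 68.75%, beside 39.7% of all tested genes. The uptake receptor gene Tfrc was higher with IL4, and Slc40a1, the iron exporter ferroportin, gave 606, 617 and 617 with TGFb and 206, 182 and 196 with IL4 (log2 difference -1.65, SE 0.20, adjusted p = 2.41e-06). Hp, the hemoglobin scavenger haptoglobin, gave 617, 608 and 574 with TGFb and 153, 134 and 167 with IL4, and Slc25a37, the mitochondrial iron importer, 594, 610.4 and 635 with TGFb and 259, 265 and 235 with IL4.

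Of 28 genes of the NRF2, glutathione and thioredoxin systems 9 were higher with IL4 and 3 with TGFb, with a median of 0.077 and 42.9% called, near the share of all tested genes. Slc7a11, the cystine importer, gave 756, 733 and 649 with IL4 and 313, 348 and 325 with TGFb (log2 difference 1.11, SE 0.091, adjusted p = 1.64e-08), with both below 1033 to 1229.8 (median 1175) untreated, and Gstm1 2939, 2634 and 2887 with IL4 and 1465, 1489.7 and 1417 with TGFb. Of 9 phagocyte NADPH oxidase genes 5 were higher with IL4 and 3 with TGFb, with a median of 0.15. Here 88.9% were called, beside 39.7% of all tested genes. Cybb, the catalytic subunit, gave 2653, 2423 and 2374 with IL4 and 1307, 1315 and 1251 with TGFb (log2 difference 0.94, SE 0.062, adjusted p = 8.92e-10), again with both below 3966 to 4674 (median 4278) untreated, and Ncf1, a cytosolic subunit, was higher with TGFb at 1652, 1577 and 1694 with TGFb and 984, 1024 and 1024 with IL4.

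Among 31 endoplasmic reticulum and stress genes 8 were higher with IL4 and 4 with TGFb, with a median of 0.038 and 38.7% called, near the share of all tested genes. The amino acid stress factor gene Atf4 gave 2379.7, 2499 and 2704 with IL4 and 1362, 1451 and 1408 with TGFb (log2 difference 0.84, SE 0.063, adjusted p = 4.83e-09), its target Asns, asparagine synthetase, 586, 575 and 630.3 with IL4 and 228, 203 and 179.6 with TGFb, and Ddit3 341, 306 and 330.2 with IL4 and 118, 124 and 116 with TGFb. Atf4 was not called between IL4 and untreated cells (-0.012, adjusted p = 0.916) and fell with TGFb (-0.85, adjusted p = 4.7e-10). The chaperone gene Pdia4 rose with both stimuli, to 2307, 2255 and 2362 with IL4 and 1322, 1387 and 1340.1 with TGFb from 976 to 1074 (median 1027).

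Many cell cycle genes were higher with IL4, by small amounts. Of 40 mitosis genes 25 were higher with IL4 and 0 with TGFb, with a median of 0.26, and of 40 DNA replication genes 17 and 3, with a median of 0.16. In all 62.5% of the mitosis genes and 50% of the replication genes were called. Of all tested genes 39.7% were called, 20.7% towards IL4 and 19.0% towards TGFb. Aurka, a kinase of the spindle poles, gave 645, 572 and 642 with IL4 and 347, 352 and 356 with TGFb (log2 difference 0.81, SE 0.059, adjusted p = 3.33e-09), and the kinesin gene Kif23 527, 517 and 509 with IL4 and 362, 344 and 361 with TGFb. Both lay below the untreated ranges of 709.6 to 775 (median 750.1) and 607 to 703 (median 658) with either stimulus. Ccnd1, the cyclin that starts the cycle, gave 1604, 1824 and 1668 with IL4 and 900.4, 892 and 847 with TGFb (log2 difference 0.95, SE 0.068, adjusted p = 2.51e-09), and 1608 to 1821 (median 1675) untreated. Among 26 cycle inhibitors and p53 targets 8 were higher with IL4 and 5 with TGFb (3 without IL4 replicate 1 or TGFb replicate 2), with a median of 0.00074 and 50% called. Phlda3 gave 736, 666 and 789 with TGFb and 263, 294 and 317 with IL4 (log2 difference -1.32, SE 0.089, adjusted p = 1.17e-09), and the stress gene Sesn1 757, 761 and 679 with IL4 and 314, 367 and 336 with TGFb.

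Of 37 lysosome genes 16 were higher with TGFb and 7 with IL4 (62.2% called, beside 39.7% of all tested genes), with a median of -0.14. Ctsd, described above, was among the former, and Lamp1, a lysosomal membrane protein, was higher with IL4 at 8662, 8829 and 8940.0 with IL4 and 6264, 6682 and 6678 with TGFb (log2 difference 0.43, SE 0.061, adjusted p = 1.51e-05). Among integrins and adhesion genes 9 of 23 were called in each direction, with a median of 0.12. Here 78.3% were called, beside 39.7% of all tested genes. Itga5, the fibronectin receptor chain, gave 5389, 5468 and 4917 with TGFb and 1502, 1518 and 1389 with IL4 (log2 difference -1.84, SE 0.059, adjusted p = 5.72e-14), and Itgb7, which pairs with alpha 4, 457, 460.2 and 448 with IL4 and 226, 194 and 234 with TGFb (log2 difference 1.06, SE 0.084, adjusted p = 1.07e-08).

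Of 24 matrix and protease genes 12 were higher with TGFb and 6 with IL4, with a median of -0.24. The share called was 75%, beside 39.7% of all tested genes. The plasminogen activator gene Plau gave 14591, 15823 and 14316 with TGFb and 7618, 7770.4 and 6797 with IL4 (log2 difference -1.01, SE 0.097, adjusted p = 1.28e-07), its receptor gene Plaur 269, 218 and 231 with TGFb and 81.3, 86.1 and 87.8 with IL4, and Ecm1 1172, 1225 and 1136 with TGFb and 720.1, 696 and 688 with IL4. Higher with IL4 were the collagenase gene Mmp13 at 44.2, 33.9 and 35.0 with IL4 and 4.06, 2.13 and 7.81 with TGFb (log2 difference 2.89, SE 0.43, adjusted p = 2.5e-05), Mmp27 at 45.4, 32.5 and 38.2 with IL4 and 8.71, 6.40 and 5.21 with TGFb, and the sheddase gene Adam8 at 1106, 1117 and 1015 with IL4 and 519, 553 and 509.6 with TGFb.

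Markers of some other cell types moved between the groups. Of 10 endothelium markers 3 were in the table (Pecam1, Vwf and Egfl7), and their summed value was 235 to 278 with IL4, 731 to 848 with TGFb and 211 to 283 untreated. The sum follows Vwf, the von Willebrand factor gene, at 799, 694 and 702 with TGFb and 225, 243 and 199 with IL4 (log2 difference -1.72, SE 0.11, adjusted p = 8.93e-10). Of 14 markers of mast cells and neutrophils 2 were in the table (S100a8 and Cxcr2), with sums of 7.54 to 14.1 with IL4, 55.5 to 81.4 with TGFb and 6.604 to 17.0 untreated. Of 11 markers of the oligodendrocyte lineage 4 were in the table, and Cspg4, a proteoglycan of their precursors, gave 29.6, 27.7 and 28.0 with TGFb and 1.79, 1.41 and 2.69 with IL4. Klf2 gave 48.4, 76.2 and 74.3 with IL4 and 19.2, 25.6 and 18.2 with TGFb. The 3 astrocyte markers in the table (Slc1a2, Aldh1l1 and Aldoc) summed to 1703 to 1837 with IL4, 1678 to 1899 with TGFb and 1446 to 1612 untreated. None of them was called between IL4 and TGFb, nor was the lymphocyte marker Lck. Of 14 markers of monocytes and dendritic cells 3 were in the table (Ly6c1, S100a4 and Zbtb46), with sums of 5877 to 6110 with IL4, 3955 to 4276 with TGFb and 4315 to 4982 untreated. The IL4 and TGFb sums did not overlap, and nearly all of each was S100a4, at 5856, 5956 and 6092 with IL4 and 4260.0, 3933 and 4143 with TGFb. The part of such cells in the differences above was not tested. The summed value of the 27 microglia markers was 24516 to 26804 with IL4, 30698 to 31119 with TGFb and 19585 to 20603 untreated.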

How the data were processed

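RNA from 15 libraries of stem-cell-derived microglia was measured by TruSeq RNA sequencing, per the labels' protocols, in 6 untreated, 3 IL4, 3 TGFb and 3 LPS and IFNg libraries. The submitters' processing notes name TopHat2 2.0.3, Partek 6.6, R 3.0.2, DESeq2 and mm10, while the annotation, the counting rule and the use of strand are not given in the sources used here. Without known strand, reads of overlapping or antisense genes cannot be told apart. The deposited table holds 1 normalized signal per gene and library, and its values showed what the authors did: read counts were divided by 1 factor per library and floored at 1, with 276 of 11201 genes at the floor somewhere. Whole reads were recovered from the steps between values (tolerance 0.01 reads) and used for depth and for ratios of genes with few reads. Depth ran from 2682564 to 18676181 reads per library, and intervals cover counting error only.

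Because of the floor no count model was run. Limma 3.58.1 in R 4.3.3, with a trend, was fitted to log2(value + 1) over all 15 libraries, keeping genes that reached a value of 10 in 3 or more of them. The contrast was IL4 minus TGFb, with Benjamini-Hochberg adjustment over 11138 genes and calls at 0.05. The fit was tested on simulated data with known changes. An exact two-sided permutation test of 3 against 3 libraries cannot go below p = 0.1.

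The comparison, the gene lists and the tests were chosen with earlier results of these data known. The genes named are the 15 called genes furthest in each direction whose groups do not overlap and whose higher mean reaches 50 (predicted, RIKEN, ribosomal and small RNA genes left out), the measured IL4 and TGFb panel genes, up to 5 called genes per other list with at least 3 calls, ranked by limma's moderated t, and the 5 smallest adjusted p-values beyond these. Other list members are named with their values, and a few genes that the rule picks are not reported here. The alternatives were other pseudocounts, filters, scalings and sample sets, a fit without the trend, and each library left out.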

Additional observations from a re-analysis of the deposited data

Results flagged for a closer look

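In 67 named genes the 6 untreated libraries were searched for a library far from the others, and 3 genes had one, where chance gives about 1 in 20 groups. Untreated replicate 6 had 1095 normalized counts of Gas7, below the other 5 libraries at 1161 to 1191. Untreated replicate 4 had 8.41 of Htr2b, above the others at 2.88 to 4.41. Untreated replicate 5 had 1.08 of Olfml3, where the others were at the floor of 1.00. In each gene this gap was small beside the difference between IL4 and TGFb libraries.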

How the results depend on the processing

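The 4427 genes called between IL4 and TGFb ranged from 3779 to 5018 over 15 alternatives, all within 1.5 times. The count was 4967 without the LPS and IFNg libraries, 5018 with only the 6 IL4 and TGFb libraries, and 3779 to 3854 with 1 library left out. Of the 4427 genes, 83.06% to 99.91% were also called under each alternative, in the same direction. The share higher with IL4 was 51.61% to 54.17%, and the median difference over all genes 0.003203 to 0.03175. Of 205 called genes that the text's rule names, 5 (Socs1, Col4a2, Myc, Ifi30 and Itgax) lost their call somewhere and 0 reversed. Pdcd1lg2, not called, ranged from -0.5525 to 0.1172 with 1 library left out, positive without IL4 replicate 3 (0.1172) or TGFb replicate 1 (0.007965). The cause was not tested. Of 1140 counts of list members under alternatives 39 moved by over 1.5 times. The planned edgeR and DESeq2 fits were not run, since a value at the floor of 1 can hide up to 2 reads, depending on the library. Values above the floor were recovered as whole reads. No paired analysis was possible because the labels give no replicate numbers that tie IL4 to TGFb libraries. Precision is limited by 3 libraries a group and, for low genes, by the floor at 1.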
